A study of Mus musculus with 7 samples.

Results

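The p53 target genes read out were Cdkn1a, Ccng1, Mdm2, Bax, Aen, Eda2r, Trp53inp1, Phlda3, Sesn2 and Zmat3, each known to be induced by p53. They are 10 of the 32285 genes in the count data, and all 10 passed the filter on low counts. The list was chosen by known p53 targets and with the fold changes of the comparison described here already seen, so its values are given as a description and without a test. Utricles, the gravity-sensing organs of the inner ear, were taken from wild-type mice at P2 (C57BL/6J, per the study's methods) and kept as explants. Both groups were damaged with gentamicin, an aminoglycoside antibiotic that kills hair cells, at 2 mM for 24 h, and were collected at day 5. The Gent+Fos OE group (4 libraries) also received AAV-PHP.eB carrying mouse Fos behind the CMV promoter for 48 h, and the Gent group (3 libraries) is labelled with gentamicin alone. Each library pooled 12 utricles, so the spread is one between pools, and undamaged utricles are not analysed here. The CMV promoter is not restricted to a cell type, and the labels do not say whether the Gent utricles received a virus, although the study describes an EGFP virus as its control. The names of the deposited Gent data, unlike their labels, hold letters that could stand for short hairpin RNA, which the study used elsewhere against Fos. What the Gent utricles received beyond gentamicin is therefore not settled, and each fold change given is one against the libraries labelled Gent, in which effects of a vector and of Fos cannot be told apart.

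The transcription factor p53 is held at a low level in unstressed cells by Mdm2, a ubiquitin ligase that marks it for degradation and that is itself induced by p53. DNA damage and other stresses release p53, which then binds response elements made of a pair of 10-base consensus sites and raises genes for cell cycle arrest, repair, metabolism and cell death. In the inner ear, p53 is best known for its part in the death of hair cells after ototoxic drugs. The overexpressed gene, Fos, encodes a subunit of AP-1, which binds a different, shorter sequence.

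The proximal promoters were compared first, because they show where a p53 site lies close to the start of a member. RefSeq windows of 300 bases on GRCm38.p6, from 250 before to 50 after a listed start, were matched for 8 members (10 windows), and Trp53inp1 and Zmat3 had no match. A pair of adjacent p53 consensus sites with at most 1 mismatch, a tolerance set after the Cdkn1a promoter had been read, stood in the windows of Cdkn1a and Ccng1. The share of all 32851 windows with such a pair was 0.067%. The 2 stretches are printed below 5′ to 3′ on the strand of the gene, with the paired site in capitals. The Cdkn1a stretch lies at chr17:29090903-29090972 (plus strand) and the Ccng1 stretch at chr11:40755437-40755506 (minus strand).
Cdkn1a: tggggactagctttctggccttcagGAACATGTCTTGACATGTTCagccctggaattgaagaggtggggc
Ccng1: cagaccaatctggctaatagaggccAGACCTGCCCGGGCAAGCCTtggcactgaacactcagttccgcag

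The Cdkn1a site begins 51 bases and ends 32 bases upstream of the start, and the Ccng1 site runs from 195 to 176 bases upstream. A single exact p53 consensus site of 10 bases was found in 5 of the 8 members, namely these 2 and Bax, Aen and Mdm2. Counted by window, it was in 6 of the 10 member windows, with the same Aen site in 2 of them, against 8.36% of all windows. The site read AGGCAAGCTT in Bax, GGGCTTGTCC in Aen and GAACTTGCCT in Mdm2. The AP-1 sequence TGANTCA, which reads alike on both strands, was found in 0 of the 8 members and in 7.81% of all windows. Sites further from the start were not searched, and a match is a sequence only, not a measurement of binding.

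The libraries held 27879889 to 34335214 counts each, with a median of 31313523, and no pair of replicates agreed within sampling noise. Fos had 148.8 to 167.0 CPM (counts scaled to library size, with TMM normalization) in Gent+Fos OE and 34.6 to 40.6 CPM in Gent. The quasi-likelihood test of edgeR gave Fos a log2 difference of 2.01 (standard error 0.13) at an adjusted p of 0.000142. Gent replicate 2 stood apart in its trend with gene length across the 17155 tested genes. Its deviation from the mean of the 7 libraries had a Spearman's rho of -0.496 with length, against -0.221 to 0.325 in the other 6. The rho was 0.124 to 0.325 in the 4 Gent+Fos OE libraries, 0.153 in Gent replicate 1 and -0.221 in Gent replicate 3. Over the same genes, the log2 fold change itself had a rho of 0.378 with length. Gent replicate 2 also had the highest mitochondrial share of counts, 2.86% against 1.74% to 1.99%. It had the fewest genes with a count, 20254 against 20466 to 21623. Markers of other cells also differed between the groups. The macrophage list was lower in Gent+Fos OE in 8 of 9 genes (summed level 1027 to 1677 CPM against 1837 to 2245 CPM in Gent) and the melanocyte list in 5 of 5 (31.2 to 36.8 CPM against 67.5 to 111.5 CPM). The summed supporting cell and utricle epithelium markers were at 1777 to 2792 CPM against 1372 to 1673 CPM, with 5 of 7 higher and a median log2 fold change of 0.09. That separation rested on Otog, the gene for otogelin (830.4 to 1354 CPM against 431.2 to 466.1 CPM), since the other 6 genes summed to 946.2 to 1438 CPM against 940.5 to 1207 CPM, a sum chosen after the data were seen. Among those 6, Tectb was at a log2 fold change of -1.39 (edgeR adjusted p = 0.0348, not called). Hair cell markers summed to 624.6 to 816.7 CPM against 560.2 to 695 CPM, with 4 of 7 higher, and markers of both epithelial cell types were thus detected in every library. Sums overlapped for mesenchyme (4 of 6 lower, 6352 to 9678 CPM against 7911 to 11630 CPM), endothelium (3 of 5 lower, 128.7 to 174.9 CPM against 140.6 to 203.8 CPM), Schwann cells (3 of 4 lower, 260.0 to 374.5 CPM against 227.6 to 406.2 CPM) and neurons (3 of 4 higher, 46.3 to 64.1 CPM against 39.1 to 59.4 CPM). Erythroid markers stayed at 0.411 to 1.08 CPM in every library. In such bulk samples, fewer cells of a type and less RNA per cell cannot be told apart, and the part of these differences in the values below was not tested.

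Within the list, 9 of the 10 p53 targets had a fitted log2 fold change (Gent+Fos OE over Gent) above 0, and Bax alone was below 0. Their median was 0.29, and that of all tested genes was -0.00075, with 49.9% of them above 0. The largest differences were those of Eda2r and Trp53inp1, and the smallest that of Phlda3. A gene was called where its adjusted p was below 0.01 and its log2 fold change beyond 0.25 in size. By edgeR 0 of the 10 were called, and 0.414% of tested genes were. With the unadjusted p below 0.05 and that same fold limit, 5 members were higher and 1 lower, where 11.1% and 13.4% of all tested genes were. DESeq2 called 1 member higher (Eda2r), where it called 1.31% of its genes higher. Since the list was drawn up from this comparison, nothing is read from these counts.

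The groups did not overlap for 6 members (Mdm2, Aen, Eda2r, Trp53inp1, Sesn2 and Zmat3), all of them higher in Gent+Fos OE, and overlapped for the other 4. Among all tested genes, 11.3% were higher and 12.2% lower without overlap. Without Gent replicate 2, the count was 8, with Cdkn1a and Phlda3 added, where the share of all genes was 14.7%. This alternative was chosen after the data were seen.

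**Figure D1:**
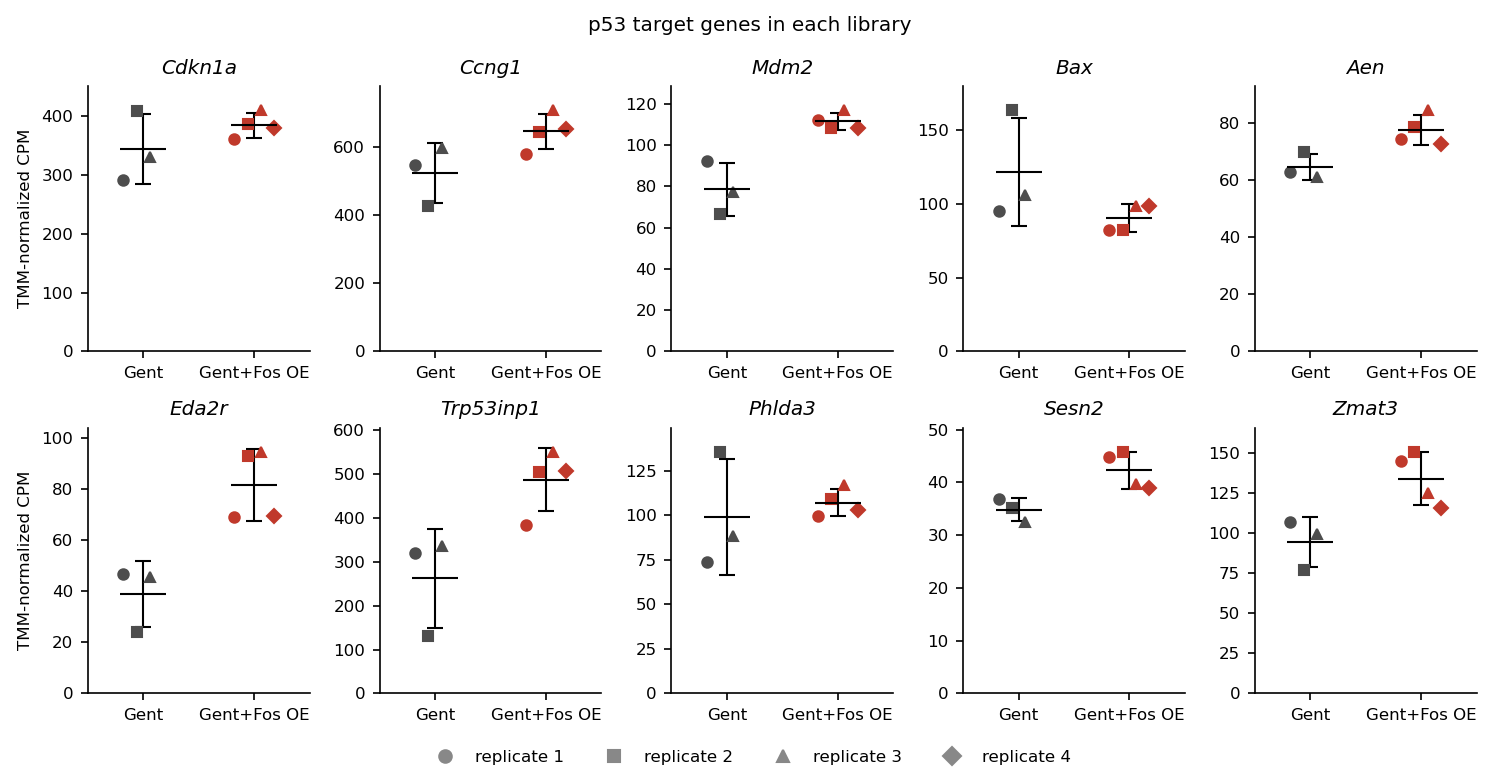
TMM-normalized CPM of the 10 p53 target genes in each of the 7 libraries, with 1 panel per gene, linear axes from 0, markers for replicates, and the mean and SD of each group as a bar with whiskers. All 4 Gent+Fos OE libraries lie above all 3 Gent libraries for Mdm2, Aen, Eda2r, Trp53inp1, Sesn2 and Zmat3.

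Cdkn1a, Ccng1 and Mdm2 act in arrest and feedback. Cdkn1a (ENSMUSG00000023067, chromosome 17 of mm10, 29090976 to 29100727) encodes p21, the inhibitor of cyclin-dependent kinases through which p53 arrests the cell cycle. It had 360.4, 385.8, 409.8 and 378.8 CPM in Gent+Fos OE replicates 1 to 4 and 291.5, 408 and 330.7 CPM in Gent replicates 1 to 3. Gent replicate 2 lay at the level of the highest Gent+Fos OE library, and the other 2 Gent libraries lay below all 4. The fitted log2 fold change was 0.16 (standard error 0.14), and it was 0.30 without Gent replicate 2, 0.05 without Gent replicate 1 and 0.25 after correction of every library for gene length.

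Ccng1 (ENSMUSG00000020326, chromosome 11, 40748552 to 40755311), the gene for cyclin G1, a partner of protein phosphatase 2A in the control of Mdm2, had 581.1, 644, 709.8 and 652.9 CPM in Gent+Fos OE and 548, 426.9 and 597.3 CPM in Gent. Here Gent replicate 2 was the lowest library, and Gent replicate 3 lay above Gent+Fos OE replicate 1. Its log2 fold change was 0.30 (standard error 0.14) with all libraries and 0.17 without Gent replicate 2.

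Mdm2 (ENSMUSG00000020184, chromosome 10, 117688875 to 117710758) closes the negative feedback on p53. Its values were 112.4, 108.1, 117 and 108.5 CPM in Gent+Fos OE, a narrow range with a coefficient of variation of 3.74%. In Gent they were 92.2, 66.5 and 77.3 CPM, all below the 4 Gent+Fos OE libraries. The difference was 0.50 on the log2 scale (standard error 0.13), and the 7 fits that each omit 1 library gave 0.39 to 0.63.

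Among the apoptosis and survival genes, Eda2r showed the largest difference of the list. Eda2r (ENSMUSG00000034457, chromosome X, 97333840 to 97377216) encodes a receptor of the TNF receptor superfamily for a form of ectodysplasin A. In Gent+Fos OE it had 69.2, 93.1, 94.6 and 69.6 CPM, and in Gent 47.0, 23.9 and 45.6 CPM. The mean was 81.7 ± 14.1 CPM (SD, n = 4) against 38.8 ± 12.9 CPM (SD, n = 3), a ratio of 2.10. The Gent+Fos OE libraries fell into a higher and a lower pair, and Gent replicate 2 stood below both other Gent libraries. On the log2 scale the difference was 1.07 (standard error 0.23), with 0.81 without Gent replicate 2.

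Trp53inp1 (ENSMUSG00000028211, chromosome 4, 11156431 to 11174379) encodes a stress-induced nuclear protein that promotes the phosphorylation of p53 and acts in autophagy. It had 384.1, 506, 550.6 and 508.6 CPM in Gent+Fos OE and 320.5, 130.9 and 335.3 CPM in Gent. Gent replicate 2 was far below the other 2 Gent libraries, which lay close to Gent+Fos OE replicate 1. The log2 fold change of 0.89 (standard error 0.28) fell to 0.57 without Gent replicate 2, so that the library moved it by over 1.5 times.

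Bax (ENSMUSG00000003873, chromosome 7, 45461697 to 45466898), which forms the pores in the outer mitochondrial membrane that start the intrinsic death pathway, was the only member lower in Gent+Fos OE. Its values were 82.1, 82.4, 98.6 and 98.7 CPM in Gent+Fos OE and 95.6, 163.8 and 106.1 CPM in Gent. The groups overlapped, since Gent replicate 1 lay below 2 of the Gent+Fos OE libraries, and Gent replicate 2 was far above all others. The log2 fold change was -0.43 (standard error 0.18) and was -0.16 without Gent replicate 2, a fall in size of over 1.5 times.

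Aen (ENSMUSG00000030609, chromosome 7, 78895854 to 78911209), the gene for a nuclease that enhances apoptosis, had 74.5, 78.5, 84.6 and 72.5 CPM in Gent+Fos OE and 62.9, 70 and 61.3 CPM in Gent. The lowest Gent+Fos OE library was just above Gent replicate 2, and the log2 fold change was 0.26 (standard error 0.12). Phlda3 (ENSMUSG00000041801, chromosome 1, 135766119 to 135769136) encodes a small pleckstrin-homology protein that restrains Akt. It had 99.9, 109.4, 116.9 and 102.8 CPM in Gent+Fos OE and 73.6, 135.6 and 88.4 CPM in Gent. As with Bax, Gent replicate 2 was the highest of all 7 libraries, while the other 2 Gent libraries were the lowest. The log2 fold change of Phlda3 was 0.11 (standard error 0.19), 0.40 without Gent replicate 2 and -0.063 without Gent replicate 1, so its direction turned when that library was left out.

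The last 2 members act in metabolism and on RNA. Sesn2 (ENSMUSG00000028893, chromosome 4, 132492032 to 132510501) encodes sestrin 2, a leucine sensor that restrains mTOR signalling under stress. It had 44.9, 45.7, 39.7 and 38.9 CPM in Gent+Fos OE and 36.9, 35.1 and 32.5 CPM in Gent. Gent replicate 2 lay between the other 2 Gent libraries, and the log2 fold change of 0.28 (standard error 0.12) was also 0.28 without that library. Zmat3 (ENSMUSG00000027663, chromosome 3, 32334792 to 32366014) encodes a zinc finger protein that binds RNA. Its values were 145.2, 150.5, 124.8 and 115.7 CPM in Gent+Fos OE and 106.9, 76.9 and 99.5 CPM in Gent. All 4 Gent+Fos OE libraries were above Gent, replicates 3 and 4 by less, and the log2 fold change was 0.51 (standard error 0.15).

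Compared per kilobase of exon (RPKM), the levels in Gent ranged from 149.2 ± 24.96 RPKM (SD, n = 3) for Ccng1 to 6.59 ± 2.19 RPKM for Eda2r. Below Ccng1 followed Cdkn1a (96.7 RPKM), Bax (77.3 RPKM), Phlda3 (63.6 RPKM), Trp53inp1 (40.5 RPKM), Mdm2 (15.5 RPKM), Aen (11.2 RPKM), Sesn2 (10.02 RPKM) and Zmat3 (8.26 RPKM). Of the 9 neighbouring pairs in this order, 3 were apart by more than their SDs, namely Ccng1 and Cdkn1a, Trp53inp1 and Mdm2, and Mdm2 and Aen. In Gent+Fos OE, Ccng1 was again first at 184.2 RPKM. The mean of Trp53inp1 in that group (75.3 ± 11.1 RPKM, SD, n = 4) was above those of Phlda3 (68.8 ± 4.86 RPKM) and Bax (57.4 ± 6.02 RPKM). Trp53inp1 and Phlda3 were within their SDs in Gent+Fos OE. Eda2r, the lowest in Gent, had 13.9 RPKM there, close to Aen at 13.4 RPKM.

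The members did not move as a block across the 7 libraries. Gent+Fos OE replicate 3 held the highest value of its group for 7 members and replicate 1 the lowest for 6. Gent replicate 2 was the highest Gent library for 4 members (Cdkn1a, Bax, Aen and Phlda3) and the lowest for 5 (Ccng1, Mdm2, Eda2r, Trp53inp1 and Zmat3). In that library the shortest members were raised, with Bax (1.58 kb of exon) 0.69 and Phlda3 (1.56 kb) 0.41 above their mean log2 CPM. The longer Trp53inp1 (6.47 kb), Eda2r (5.89 kb) and Zmat3 (11.4 kb) were at -1.45, -1.27 and -0.57. The order was not one of length alone, since Aen (5.80 kb) was at -0.03 and the shorter Ccng1 (3.51 kb) at -0.46. Of the list, 5 members exceed 4084 bp, the median exonic length of tested genes. No exonic base of the 10 overlaps another annotated gene.

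**Figure D2:**
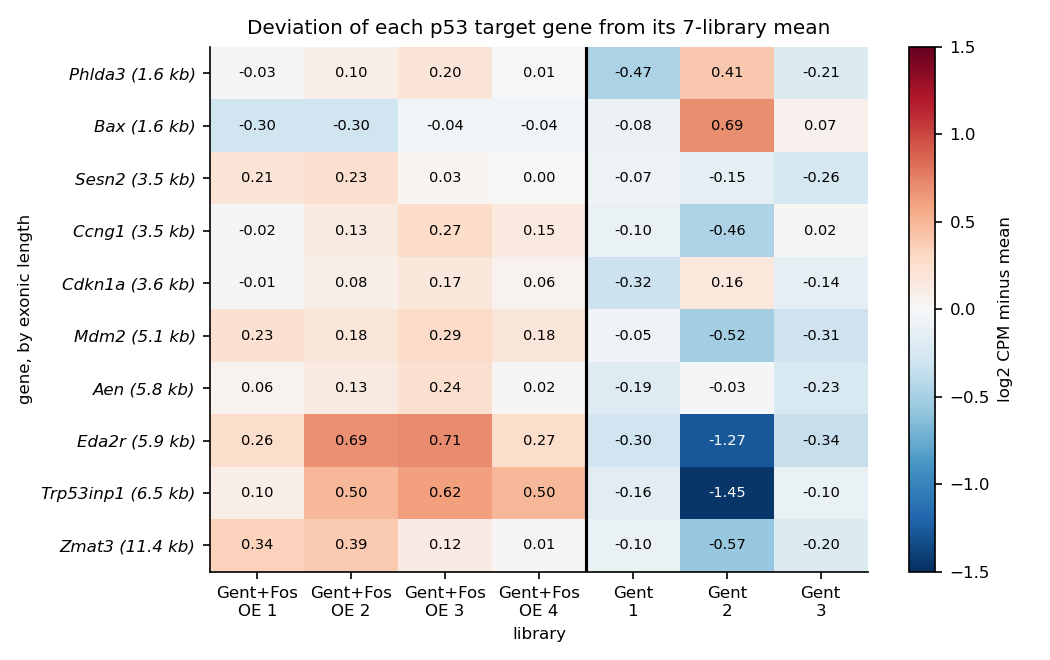
Log2 CPM of each p53 target gene minus its mean over the 7 libraries (columns, Gent+Fos OE left of the line and Gent right of it), with genes ordered by exonic length and the value written in each cell. Within Gent replicate 2 the values run from 0.69 for Bax, near the short end, to -1.45 for Trp53inp1, near the long end, and the highest value of all is 0.71 for Eda2r in Gent+Fos OE replicate 3.

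After the trend of every library with gene length was taken out, the same 9 members were above 0 and Bax below it, and the median of the list was 0.38. The log2 fold change of Phlda3 was then 0.42 and that of Bax -0.14. For Zmat3, the longest member, it fell from 0.51 to 0.20. Eda2r (1.01), Trp53inp1 (0.81) and Mdm2 (0.47) moved little. No member was called under this correction.

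**Figure D3:**
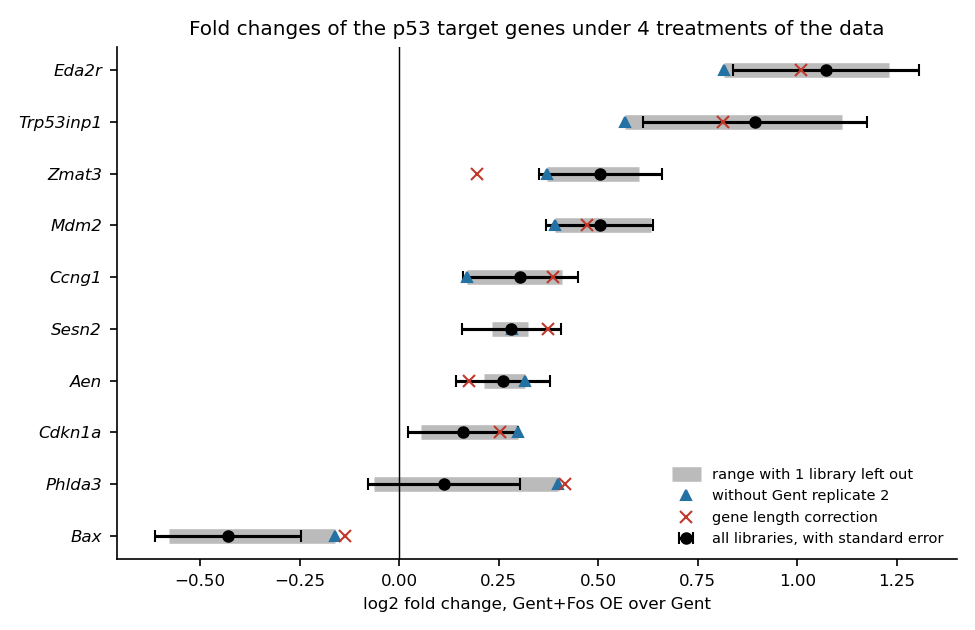
Log2 fold change (Gent+Fos OE over Gent) of each p53 target gene with all libraries (black, with standard error), over the 7 fits that leave out 1 library (grey bar), without Gent replicate 2 (triangle) and after correction of every library for gene length (cross). Eda2r and Trp53inp1 stay highest, at 1.07 and 0.89 with all libraries, and the grey bar of Phlda3 alone crosses 0.

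The gene for p53 itself, Trp53 (ENSMUSG00000059552, chromosome 11, 69580359 to 69591873), was not higher in Gent+Fos OE. It had 100.1, 95.1, 87.3 and 83.9 CPM there and 104.1, 166.7 and 109.3 CPM in Gent. All 4 Gent+Fos OE libraries lay below Gent, and Gent replicate 2 was far above the rest. Its log2 fold change was -0.47 (standard error 0.17, edgeR adjusted p = 0.147), and it was -0.23 without Gent replicate 2. The level of the p53 protein is set mainly by its turnover, which these counts do not show.

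Mdm4, the partner of Mdm2 that blocks p53 activity, had 179.6 to 202.3 CPM in Gent+Fos OE and 84.8 to 166.7 CPM in Gent (log2 fold change 0.59, standard error 0.20, edgeR adjusted p = 0.128). Without Gent replicate 2 the difference was 0.36, and with the length trends removed 0.22. Ppm1d, a phosphatase that p53 induces and that switches the response off, had 22.6 to 27.5 CPM in Gent+Fos OE and 23.6 to 27.4 CPM in Gent. Its log2 fold change was -0.02 (standard error 0.13), well within the spread of both groups.

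A wider list of 25 genes for p53, its relatives and its regulators had 24 tested members, and edgeR called 0 of them, as did DESeq2. Of the 24, 13 were higher and 11 lower (median 0.07), and 6 and 3 passed an unadjusted p under 0.05 with the fold limit, which 11.1% and 13.4% of all tested genes passed, so the lower count was near that share. The largest difference was that of Hipk2, a kinase that phosphorylates p53, with 71.3 to 120.4 CPM in Gent+Fos OE and 67.0, 12.7 and 37.5 CPM in Gent replicates 1 to 3. Its log2 fold change of 1.26 had a standard error of 0.43 (edgeR adjusted p = 0.131) and was 0.83 without Gent replicate 2 and 1.89 without Gent replicate 1. Atm, the kinase that signals DNA breaks, followed at 0.66 (standard error 0.43, edgeR adjusted p = 0.353). It overlapped between the groups, with Gent replicate 2 at 6.25 CPM and the other libraries at 27.8 to 42.8 CPM, and without that replicate its log2 fold change was 0.20, and 1.19 without Gent replicate 1. Trp53bp1, a repair factor first found by its binding to p53, had 0.63 (standard error 0.17, edgeR adjusted p = 0.0862), and 0.27 with the length trends removed, and 15.0% of its exonic bases overlap another gene. Trp63 and Trp73, the relatives of p53, were under 1 CPM on average.

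The other 40 listed p53 targets were split evenly, with 20 higher and 20 lower and a median log2 fold change of 0.0028. None of the 40 was called by edgeR, 5 were higher and 5 lower at an unadjusted p under 0.05 with the fold limit, and DESeq2 called Dram1 lower. Both counts of 5 were near the shares of all tested genes (11.1% higher and 13.4% lower, with 0.414% called). With the length trends removed, 26 were higher and 14 lower, with a median of 0.13. Whether the 10 members differ from these 40 was not tested, since the members were named with their fold changes known.

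Of the 13 arrest and repair targets, 6 were higher and 7 lower, led by Polk and Rrm2b, which serve DNA synthesis across and after damage, and by Plk3, a stress-responsive kinase. Polk had 38.7 to 44.3 CPM in Gent+Fos OE and 17.1 to 31.3 CPM in Gent (log2 fold change 0.65, standard error 0.20, edgeR adjusted p = 0.109). Plk3 was at -0.58 (standard error 0.19, edgeR adjusted p = 0.122) and Rrm2b at 0.55 (standard error 0.22, edgeR adjusted p = 0.173). Without Gent replicate 2 these 3 fold changes were 0.41 for Polk, -0.32 for Plk3 and 0.28 for Rrm2b, and with the length trends removed those of Plk3 and Rrm2b were -0.38 and 0.36.

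Of the 11 apoptosis targets, 7 were higher and 4 lower. Dram1, a lysosomal membrane protein that links p53 to autophagy, had 18.9, 16.6, 20.4 and 21.6 CPM in Gent+Fos OE and 43.5, 34.1 and 32.7 CPM in Gent. The groups were well apart, at a log2 fold change of -0.92 (standard error 0.15), but the edgeR adjusted p of 0.0136 just missed the limit. DESeq2 called it (adjusted p = 8.06e-06), as did edgeR without Gent replicate 2 (adjusted p = 0.00588), and over all alternatives the adjusted p ran from 8.06e-06 to 0.0778. Perp, a desmosome protein of epithelia, had 53.4 to 73.1 CPM in Gent+Fos OE and 38.2 to 48.9 CPM in Gent (log2 fold change 0.53, standard error 0.15, edgeR adjusted p = 0.0956). The death receptor gene Fas went the other way, with 9.48 to 11.9 CPM in Gent+Fos OE and 14.3 to 16.4 CPM in Gent (log2 fold change -0.53, standard error 0.15, edgeR adjusted p = 0.0975), and its fold change was -0.32 with the length trends removed.

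Of the 16 targets in metabolism and other processes, 7 were higher and 9 lower. Epha2, an ephrin receptor, was at 0.39 (standard error 0.22), overlapped between groups and was at 0.16 without Gent+Fos OE replicate 2. Gdf15, a secreted stress factor, was at -0.34 (standard error 0.15, edgeR adjusted p = 0.193), with 36.6 to 47.3 CPM against 44.0 to 61.8 CPM. It was at -0.21 without Gent replicate 2 and at -0.082 with the length trends removed.

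Genes of the cell cycle that p53 lowers through p21 and the DREAM repressor complex were listed as well. Of the 27, 26 were lower in Gent+Fos OE and 1 was higher, with a median log2 fold change of -0.53. None was called by edgeR, 21 were lower and 0 higher at an unadjusted p under 0.05 with the fold limit, and DESeq2 called 7 lower, among them Cdk1, Aurkb and Mcm6. Of all tested genes, 13.4% were lower at that unadjusted p and fold, and DESeq2 called 1.6% lower. Their summed level was 668.5 to 864.6 CPM in Gent+Fos OE and 953.4 to 1090 CPM in Gent. The largest differences were in Ccnb2 (-0.92, standard error 0.26), Cdk1 (-0.81, standard error 0.17) and Aurkb (-0.78, standard error 0.14), which drive or carry out mitosis. The edgeR adjusted p of these 3 was 0.0952, 0.0406 and 0.0235. Cdk1 had 26.7, 29.6, 23.3 and 21.3 CPM in Gent+Fos OE and 43.2, 52.9 and 36.2 CPM in Gent, with no overlap. Without Gent replicate 2 edgeR called 1 of the 27, Mcm6, lower, and the list's median was -0.51 with 27 of 27 lower, and with the length trends removed -0.49. The median of these genes and the fold change of Cdkn1a had opposite signs, and the groups overlapped for Cdkn1a.

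**Figure D4:**
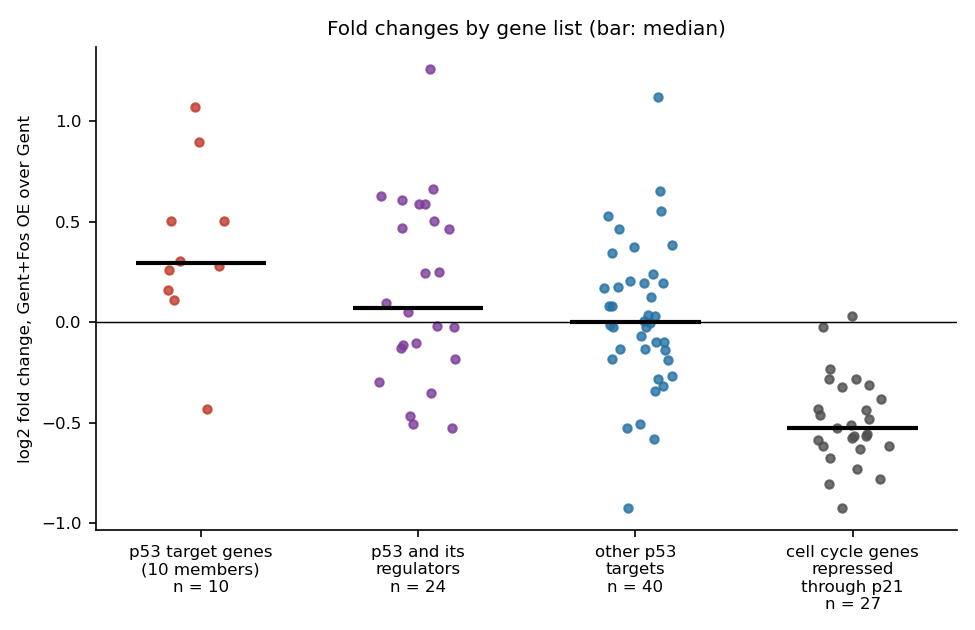
Log2 fold changes (Gent+Fos OE over Gent) of the 10 p53 target genes, the 24 tested genes for p53 and its regulators, 40 other p53 targets and 27 cell cycle genes, with 1 point per gene, spread sideways only for visibility, and a bar at the median. The medians are 0.29, 0.07, 0.0028 and -0.53.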

How the data were processed

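RNA sequencing of 7 utricle libraries was used. Per the file headers, the authors made the deposited counts with featureCounts 2.0.6 from paired-end reads and an mm10 annotation, counting the 2 reads of a pair separately, without strand, and leaving out reads that map to several places or genes. The labels list Trim Galore 0.6.10, HISAT2 2.2.1 and mm10, while the study's methods name mm39, and the methods state 3 replicates per condition where the labels list 4 and 3. The counts were not normalized before deposit, and the file headers give exonic length.

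Symbols were kept for 24497 of 32285 genes whose Ensembl ID in GENCODE and mm10 position in RefSeq carry the same name. The fits were made with edgeR 4.0.16 under R 4.3.3 (filterByExpr, TMM, quasi-likelihood F-test, Benjamini-Hochberg over all 17155 tested genes), DESeq2 1.42.0 and limma 3.58.1. The script was tested on simulated data. The labels do not say whether equal replicate numbers pair libraries, and the main fit used no pairing. Alternatives were DESeq2, limma-voom, RLE, 2 filters, a loess correction for gene length (span 0.3), a replicate block and leaving out each library. Labels call the libraries biological replicates.

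The members and all gene lists were chosen with earlier results of these data known. Besides the members, Trp53, Mdm4, Ppm1d and Fos, the genes named are the 3 with the largest fold change in each list, at a mean of at least 1 CPM (1 of them is not reported here), and Mcm6, Trp63, Trp73, Otog and Tectb, named after their values were seen.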

Additional observations from a re-analysis of the deposited data

How the results depend on the processing

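Over 15 alternatives, 7 of them leaving out 1 library, the 150 values of the members kept their direction in 149, and in 6 of these moved by more than the spread between replicates. The exception was Phlda3 without Gent replicate 1, at -0.063. Its value was 0.40 without Gent replicate 2 and highest, at 0.47, with the replicate block and the gene length correction together. The members' median log2 fold change was 0.38 with the gene length correction and 0.41 with the replicate block and that correction together, and 0.28 to 0.34 with single libraries left out. DESeq2 called 1 member, and no other alternative called any. Of the other p53 pathway genes, 2 were called by DESeq2, 2 without the filter on low counts, and 0 to 1 with single libraries left out. The number of all genes called, 71 in the report, was 611 with DESeq2 and 204 without the filter, and 5 to 138 with single libraries left out: 5 without Gent+Fos OE replicate 3, 138 without Gent replicate 2, and 21, 24, 19 and 15 without Gent+Fos OE replicates 1, 2 and 4 and Gent replicate 3. The cause was not tested. The direction of Ppm1d reversed with the gene length correction (0.10), with it and the replicate block (0.060), and without Gent+Fos OE replicate 3 (0.021) or Gent replicate 3 (0.055), within a range of -0.076 to 0.055 with single libraries left out.

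With the replicate block, in which Gent+Fos OE replicate 4 has no partner and drops out of the contrast, 0 genes were called (edgeR, 1697 higher and 1703 lower at an unadjusted p under 0.05 with the fold limit), and Fos had an adjusted p of 0.0296. Deviations of libraries that share a number correlated across genes at 0.064, -0.038 and 0.032. Gent+Fos OE replicate 1 correlated best with Gent replicate 1 (0.064), and replicate 2 with Gent replicate 3 (0.04). Gent+Fos OE replicate 3 correlated equally with Gent replicates 2 and 3 (0.032). With 4 and 3 libraries, such values cannot decide whether equal numbers mark libraries handled together.

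Single members had 747 to 22419 reads in a library, so the spread between pools, not read depth, sets the precision.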

Other observations

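Genes outside the lists were compared with the median profile of the 10 members over the 7 libraries, by the root mean square difference in centred log2 CPM. Of the genes with a symbol and a mean of at least 10 CPM, the 5 nearest were Tmem229a, Exoc4, Wdr35, Igip and Wipi1, at 0.0558 to 0.0666 log2 units. Wipi1, which acts in autophagosome formation, had 63.3 CPM in Gent+Fos OE and 49.5 CPM in Gent, and Exoc4, a subunit of the exocyst, 191.8 and 144.5 CPM. The libraries share depth, group and gene length trends with the members, and the profile was chosen from this comparison, so the likeness is a description only.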
